A study of Mus musculus with 2 samples.

Results

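The genes described here belong to the mouse major histocompatibility complex (MHC), named H2, and to the pathway that loads its molecules with peptide. They comprise all genes whose symbol starts with H2- plus B2m, Tap1, Tap2, Tapbp, Cd74 and Ciita, which gave 51 of the 55536 genes measured. Of these, 32 were class I heavy chain genes or their pseudogenes, 4 were class I partners, 5 were class II chains, 5 were class II peptide exchange genes, 2 were class II partners and 2 were class II pseudogenes. The remaining gene, H2-Ke6, encodes a metabolic enzyme and shares only the prefix. B2m lies on chromosome 2, Ciita on chromosome 16, Cd74 on chromosome 18 and all other members on chromosome 17.

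Total RNA was sequenced from the left cortex of 2 male mice of the 5xFAD/CAST cross at an age of 8 to 10 months, which the labels number as replicates 2 and 1 and place in 1 group. The 5xFAD line carries human transgenes with familial Alzheimer disease mutations under the neuronal Thy1 promoter, while CAST was bred from wild-caught mice. Neither parent strain nor any group labelled as free of the transgenes was analysed here. The labels name the cross and give no transgene genotype for either animal. What can be described is the level of each gene, the difference between the animals, and the difference between 2 ways of counting the same reads. Each library was made from 300 ng of RNA after reduction of ribosomal RNA, with a directional kit and spike-ins.

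Class I molecules pair a heavy chain with beta-2 microglobulin (B2m) and show peptides from inside the cell to CD8 T cells. The peptides enter the endoplasmic reticulum through the Tap1 and Tap2 transporter and are loaded with the help of tapasin (Tapbp). Class II molecules pair an alpha with a beta chain, are held by the invariant chain Cd74 until they reach endosomes, and show peptides to CD4 T cells. In the brain, class II is best known on microglia and on macrophages and dendritic cells of the borders, whereas class I is found more widely. The reference genome is that of C57BL/6J, whose haplotype is known to lack the start region of the E alpha gene and to make no E alpha chain, and wild-derived strains carry other haplotypes. The tables hold 1 count per gene and none per allele, so the parts of the parental haplotypes cannot be told apart. All levels below are counts against the reference transcripts. Whether reads from a haplotype that differs from the reference were lost or assigned to a related gene was not tested.

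The class I genes resemble each other in sequence, and the following stretches from the reference transcripts (mm10) show how far. The deposited assignment error of their RSEM-format counts, a posterior SD, was 4.99 reads in replicate 2 and 5.21 reads in replicate 1 for H2-D1, and 1.09 reads in replicate 2 and 1.68 reads in replicate 1 for H2-K1. This error does not cover the difference between ways of counting. H2-K1 had 548 reads in replicate 2 and 614 reads in replicate 1 by the RSEM-format counts. The kallisto-format counts of the same libraries gave it 664 reads in replicate 2 and 688 reads in replicate 1. Across the coding sequences of H2-K1, H2-D1, H2-Q4, H2-Q6, H2-Q7 and H2-Q10, identity between pairs ran from 87.6% for H2-Q6 with H2-Q10 to 95.4% for H2-Q6 with H2-Q7, a pair that shared an identical run of 265 bases. The most alike stretch of 60 bases lies in exon 4, which encodes the domain next to the membrane, and only 1 position differed. It is shown for H2-K1 (chr17:33997358-33997417, minus strand) and H2-Q4 (chr17:35383001-35383060, plus strand), with the differing base in capitals. H2-D1, H2-Q6, H2-Q7 and H2-Q10 hold the same 60 bases as H2-K1.
H2-K1: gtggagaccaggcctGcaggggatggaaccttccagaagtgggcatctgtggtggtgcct
H2-Q4: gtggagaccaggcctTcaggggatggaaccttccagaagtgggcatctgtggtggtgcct

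The stretch that differed most lies in exon 1, which encodes the signal peptide, and 26 of its 60 positions differed among the 6 genes. Capitals mark those positions. The stretches lie at chr17:34000195-34000254 on the minus strand for H2-K1 and, on the plus strand, at chr17:35263126-35263185 for H2-D1, chr17:35379647-35379706 for H2-Q4, chr17:35424880-35424939 for H2-Q6, chr17:35439224-35439283 for H2-Q7 and chr17:35470119-35470178 for H2-Q10.
H2-K1: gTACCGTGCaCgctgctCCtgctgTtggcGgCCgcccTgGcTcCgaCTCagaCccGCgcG
H2-D1: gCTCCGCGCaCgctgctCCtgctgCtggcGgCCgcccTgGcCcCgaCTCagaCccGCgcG
H2-Q4: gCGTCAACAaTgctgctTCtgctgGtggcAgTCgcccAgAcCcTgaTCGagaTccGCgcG
H2-Q6: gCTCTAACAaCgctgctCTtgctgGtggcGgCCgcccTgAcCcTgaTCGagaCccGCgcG
H2-Q7: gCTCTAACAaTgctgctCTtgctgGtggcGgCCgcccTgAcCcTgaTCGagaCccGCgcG
H2-Q10: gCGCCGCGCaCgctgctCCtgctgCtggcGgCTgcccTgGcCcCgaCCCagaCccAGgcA

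The class II alpha chains are far less alike. The coding sequences of H2-Ea-ps and H2-Aa were 63.7% identical, and their longest identical run was 11 bases. Even the most alike stretch, at chr17:34343000-34343059 for H2-Ea-ps and chr17:34283239-34283298 for H2-Aa, both on the minus strand, differed at 11 of 60 positions, given in capitals.
H2-Ea-ps: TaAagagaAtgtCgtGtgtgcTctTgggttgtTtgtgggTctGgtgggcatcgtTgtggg
H2-Aa: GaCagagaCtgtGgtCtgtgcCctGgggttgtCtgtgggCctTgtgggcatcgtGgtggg

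Levels are given as deposited TPM, a length-corrected share of all transcripts, from the RSEM-format gene table unless the kallisto-format table is named. The expected counts on genes summed to 32380330 reads in replicate 2 and 33925221 reads in replicate 1. The members held 0.0288% of these reads in replicate 2 and 0.0306% in replicate 1. A gene at 0 reads had at most 0.0926 CPM, the share of reads on the same scale without length correction, in replicate 2 and 0.0884 CPM in replicate 1, the level of 3 reads. Of the 51 members, 21 passed 1 TPM in both animals, beside 26.7% of all genes. Another 14 members had 0 reads in both RSEM-format tables, among them all 7 H2-M10 genes, whose products are known from the vomeronasal organ. The 35 members with at least 10 reads in any library of either table are named below, and the other 16 reached at most 6 reads.

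**Figure D1:**
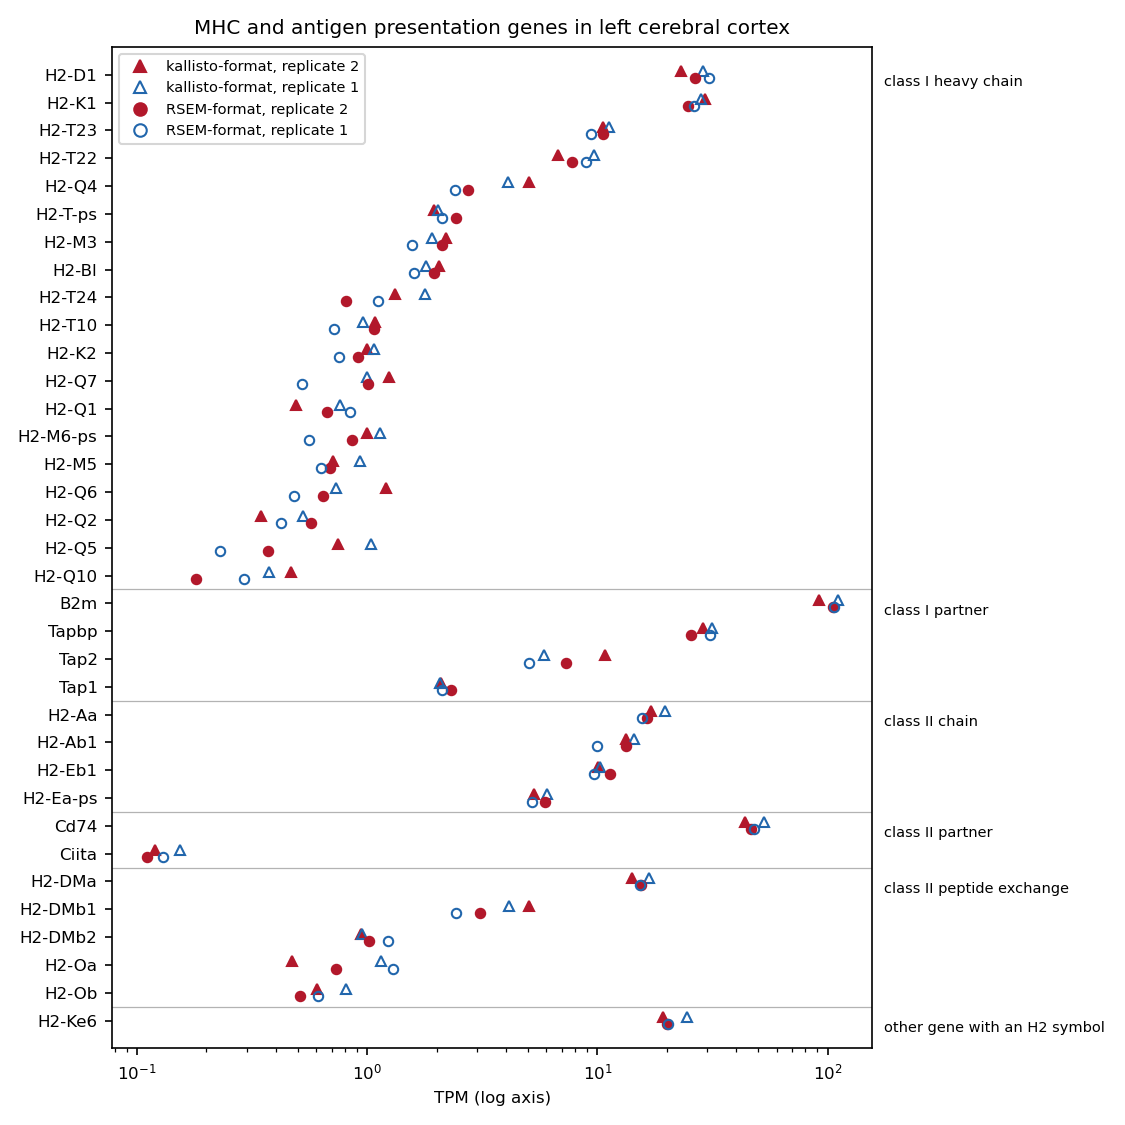
TPM of the 35 members with at least 10 reads, on a log axis, by role and then by mean RSEM-format level. Triangles are the kallisto-format table and circles the RSEM-format table, filled red for replicate 2 and open blue for replicate 1. B2m stands highest near 105 TPM, and Ciita lowest near 0.11 TPM, in replicate 2 of the RSEM-format table.

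Among class I heavy chains, the classical genes H2-D1 and H2-K1 stood highest. H2-D1, whose product presents peptide to CD8 T cells, had 26.6 TPM in replicate 2 and 30.5 TPM in replicate 1. H2-K1, the other classical heavy chain, had 24.8 TPM in replicate 2 and 26.3 TPM in replicate 1. The lower of the H2-D1 values lay just above the higher of the H2-K1 values, and the kallisto-format table ordered them differently in replicate 2.

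The nonclassical heavy chains followed. H2-T23 encodes Qa-1, which presents signal peptides of other class I molecules to receptors of natural killer cells, and it had 10.6 TPM in replicate 2 and 9.34 TPM in replicate 1. H2-T22, a ligand of gamma delta T cells, had 7.75 TPM in replicate 2 and 8.96 TPM in replicate 1. H2-T23 lay above H2-T22 in both animals, with no overlap.

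H2-Q4 had 2.74 TPM in replicate 2 and 2.41 TPM in replicate 1. H2-M3, which presents peptides that start with formylmethionine, had 2.11 TPM in replicate 2 and 1.56 TPM in replicate 1. The pseudogene H2-T-ps had 2.43 TPM in replicate 2 and 2.12 TPM in replicate 1, and H2-Bl had 1.95 TPM in replicate 2 and 1.60 TPM in replicate 1. H2-Q4 overlapped H2-T-ps in level, and H2-M3 overlapped H2-Bl. The other 11 named heavy chain genes lay between 0.18 TPM for H2-Q10 in replicate 2 and 1.11 TPM for H2-T24 in replicate 1.

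The class I partners spanned a wide range. B2m had 105 TPM in replicate 2 and 106 TPM in replicate 1, which was 1.21-fold the summed heavy chains in replicate 2 and 1.19-fold in replicate 1. In the kallisto-format table the same ratio was 1.02-fold in replicate 2 and 1.13-fold in replicate 1. B2m thus stood above the summed TPM of all heavy chains in both animals and both tables.

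Tapbp had 25.6 TPM in replicate 2 and 30.8 TPM in replicate 1. Of the peptide transporter's subunits, Tap2 had 7.33 TPM in replicate 2 and 5.06 TPM in replicate 1, and Tap1 had 2.32 TPM in replicate 2 and 2.12 TPM in replicate 1. The gap between the subunits rests partly on transcripts that do not encode the transporter, as given below with the transcript entries.

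The class II chains formed a group of intermediate level. The alpha chain H2-Aa had 16.4 TPM in replicate 2 and 15.6 TPM in replicate 1, and its partner H2-Ab1 had 13.3 TPM in replicate 2 and 9.99 TPM in replicate 1. The beta chain H2-Eb1 had 11.4 TPM in replicate 2 and 9.69 TPM in replicate 1. H2-Aa was above the other chains in both animals, whereas H2-Ab1 and H2-Eb1 overlapped. H2-Eb2 had 0 reads in both RSEM-format tables and 1 read in the kallisto-format table of replicate 2.

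H2-Ea-ps, the E alpha gene that the annotation calls a polymorphic pseudogene, was detected in both animals. It lies at chr17:34341959-34344645 on the minus strand and had 5.89 TPM from 123 reads in replicate 2 and 5.22 TPM from 122 reads in replicate 1. The kallisto-format table gave it 128 reads in replicate 2 and 125 reads in replicate 1. No 31-base word of its transcripts occurs in another gene, and the deposited assignment error of its count was 0 in both libraries. In the RSEM-format table all of its reads fell on the entry H2-Ea-ps-202, which the annotation types as protein coding.

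The E alpha level was 0.517-fold that of its partner chain H2-Eb1 in replicate 2 and 0.539-fold in replicate 1 on the TPM scale. In the kallisto-format table the ratio was 0.528-fold in replicate 2 and 0.583-fold in replicate 1. Thus the 4 values lay close together. No animals of the parental strains were analysed here, and the haplotype of origin of these reads was not tested.

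Cd74, the invariant chain, had 46.4 TPM in replicate 2 and 47.8 TPM in replicate 1. That was 0.989-fold the summed class II chains in replicate 2 and 1.18-fold in replicate 1. Ciita, the coactivator that switches on class II genes, had 12 reads in replicate 2 and 15 reads in replicate 1, a level of 0.11 TPM in replicate 2 and 0.13 TPM in replicate 1. Ciita thus lay at the low end of the named members in both animals.

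The peptide exchange genes were led by H2-DMa, with 15.5 TPM in replicate 2 and 15.3 TPM in replicate 1. Its product, paired with a DM beta chain, swaps the invariant chain's remnant for peptide in endosomes. H2-DMb1 had 3.10 TPM in replicate 2 and 2.44 TPM in replicate 1, and H2-DMb2 had 1.02 TPM in replicate 2 and 1.23 TPM in replicate 1. H2-DMa was 3.76-fold the summed beta chains in replicate 2 and 4.17-fold in replicate 1. The coding sequences of the beta chain genes were 95.9% identical, with an identical run of 221 bases, so the split of reads between them is uncertain.

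H2-Oa and H2-Ob encode the DO molecule, an inhibitor of DM known mainly from B cells. H2-Oa had 0.73 TPM in replicate 2 and 1.30 TPM in replicate 1, and H2-Ob had 0.51 TPM in replicate 2 and 0.61 TPM in replicate 1. Both stood well below H2-DMa. H2-Ke6 had 19.97 TPM in replicate 2 and 20.2 TPM in replicate 1, but 76.1% of its 31-base words also occur in Gm20427, an entry that overlaps it on the same strand.

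Class I heavy chains exceeded class II chains in summed level. The 32 class I genes summed to 86.9 TPM in replicate 2 and 89.5 TPM in replicate 1, or 88.2 ± 1.90 TPM (SD, n = 2). The 5 class II chains summed to 46.9 TPM in replicate 2 and 40.5 TPM in replicate 1, or 43.7 ± 4.53 TPM (SD, n = 2). The gap was larger than the spread between the animals, with a log2 ratio of class I over class II of 0.89 in replicate 2 and 1.15 in replicate 1, or 1.02 ± 0.18 (SD, n = 2). In the kallisto-format table the log2 ratio was 0.99 in replicate 2 and 0.97 in replicate 1.

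Its size depended on which genes entered the sums. With H2-K1 and H2-D1 alone against H2-Aa, H2-Ab1 and H2-Eb1, the log2 ratio was 0.33 in replicate 2 and 0.69 in replicate 1, with a mean of 0.51. The classical pair summed to 51.4 TPM in replicate 2 and 56.8 TPM in replicate 1. The H2-T genes added 22.7 TPM in replicate 2 and 22.3 TPM in replicate 1, and the H2-Q genes added 6.18 TPM in replicate 2 and 5.19 TPM in replicate 1. Class I lay above class II in both animals under both sums.

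**Figure D2:**
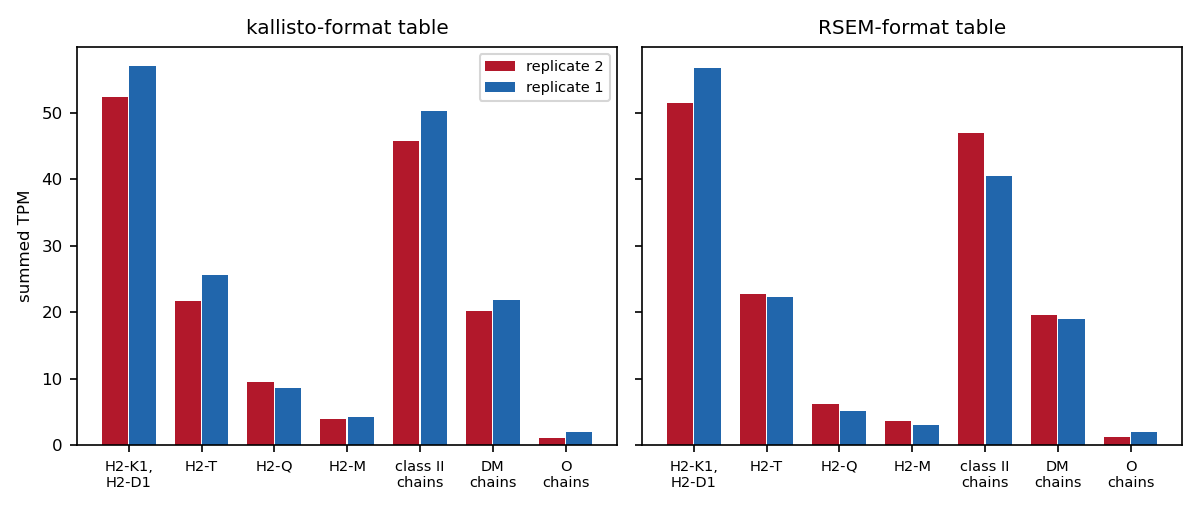
Summed TPM of class I subgroups, class II chains, DM chains and O chains, in the kallisto-format table (left) and the RSEM-format table (right), with replicate 2 in red and replicate 1 in blue. H2-K1 and H2-D1 together reach 51.4 TPM in replicate 2 and 56.8 TPM in replicate 1 of the RSEM-format table, above the class II chains in both.

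The rank of H2-D1 and H2-K1 changed with the scale. H2-D1 over H2-K1 was 1.08-fold in replicate 2 and 1.16-fold in replicate 1 on the RSEM-format TPM scale. In kallisto-format TPM it was 0.793-fold in replicate 2 and 1.02-fold in replicate 1. By expected counts, which carry no correction for length, it was 2.02-fold in replicate 2 and 2.20-fold in replicate 1. The reads were therefore followed to the transcript entries of each gene.

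H2-K1 reads were spread over 16 transcript entries, among them H2-K1-215, a retained-intron entry of 457 bases. That entry held 70.7 reads in replicate 2 and 92.7 reads in replicate 1, yet took 35.9% of the gene's TPM in replicate 2 and 39.6% in replicate 1 in the RSEM-format table. Over protein-coding entries alone, H2-D1 had 25.4 TPM in replicate 2 and 28.6 TPM in replicate 1, and H2-K1 had 14.4 TPM in replicate 2 and 13.9 TPM in replicate 1. On that basis H2-D1 stood above H2-K1 in both animals. The same was true in the kallisto-format table, where H2-D1 had 23.2 TPM in replicate 2 and 28.5 TPM in replicate 1, and H2-K1 had 13.9 TPM in replicate 2 and 17.1 TPM in replicate 1.

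Tap2 reads lay largely outside coding entries. The retained-intron entry Tap2-202 took 61.1% of its RSEM-format TPM in replicate 2 and 80.3% in replicate 1. On protein-coding entries, Tap2 had 2.86 TPM in replicate 2 and 1.00 TPM in replicate 1, whereas Tap1 had 1.74 TPM in replicate 2 and 1.55 TPM in replicate 1. On these entries the subunits overlapped. In the kallisto-format table Tap2 had 6.34 TPM in replicate 2 and 2.47 TPM in replicate 1 on coding entries. It lay above Tap1, with 1.41 TPM in replicate 2 and 1.62 TPM in replicate 1. Of the Tap2 level, the 376-base entry Tap2-203 held 3.94 TPM from 17.9 reads in replicate 2 and 0.34 TPM from 1.60 reads in replicate 1. The longest coding entry, Tap2-201 of 3442 bases, had 1.00 TPM in replicate 2 and 1.29 TPM in replicate 1. That entry lay below Tap1-206, the longest coding entry of Tap1, in both animals and both tables. Gm15821 and Gm20496 overlap Tap2 on the other strand, and without the strand setting their reads cannot be told apart from those of Tap2.

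H2-Eb1 reads fell mostly on H2-Eb1-205, an entry typed as subject to nonsense-mediated decay, with 61.2% of the gene's TPM in replicate 2 and 65.9% in replicate 1. Its protein-coding entries had 0.87 TPM in replicate 2 and 1.01 TPM in replicate 1. Against these, H2-Ea-ps stood higher in both animals, the reverse of the ratio over all entries. Summed over protein-coding entries of every member, class I over class II still had a mean log2 ratio of 0.97.

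**Figure D3:**
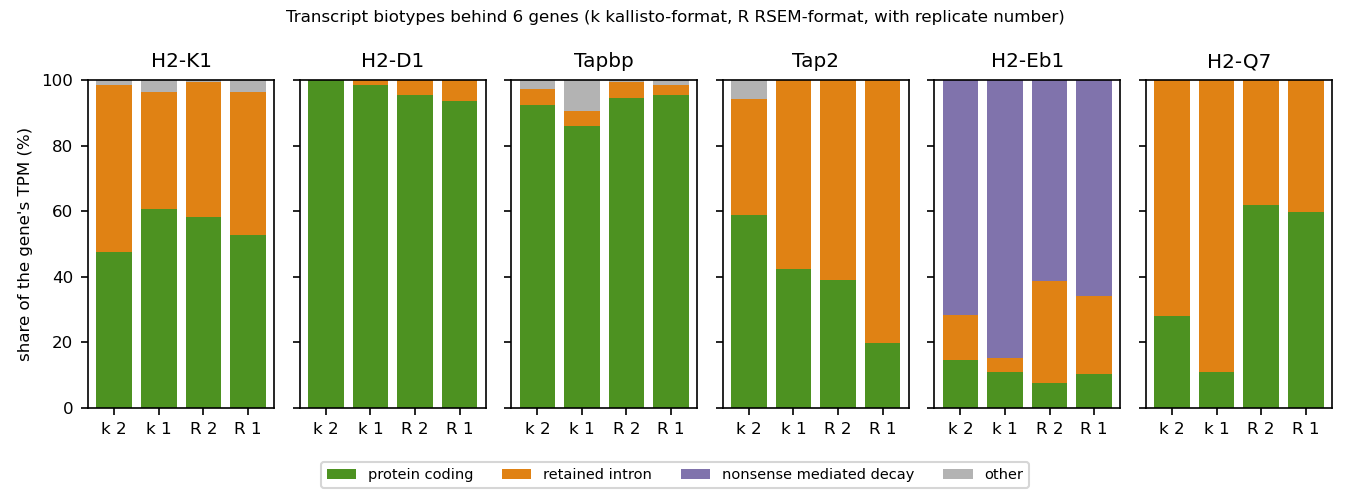
Share of the TPM of 6 genes by annotated transcript type, in percent, for the kallisto-format (k) and RSEM-format (R) tables of replicates 2 and 1. H2-D1 lies almost wholly on protein-coding entries, H2-K1, Tap2 and H2-Q7 carry large retained-intron parts, and H2-Eb1 lies mainly on an entry typed as subject to nonsense-mediated decay.

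The animals were compared gene by gene from scaled reads. Of the 34 members with at least 10 expected counts in a library, 0 were called at least 2-fold different by the counting rule, beside 1.22% of all genes tested. The rule also asks that a counting interval exclude equal levels. The log2 ratio of replicate 2 over replicate 1 ran from -0.94 for H2-Oa to 0.74 for H2-Q6, with a median of 0.04 over the members and 0 over all genes. The median size of the log2 ratio was 0.24 for the members and 0.13 for all genes tested. Most of the low members had wide intervals, as for H2-Q6 with 28.2 reads in replicate 2 and 17.0 reads in replicate 1 and an interval of -0.16 to 1.72.

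For 6 of the 34 members the 95% counting interval of the ratio lay wholly to 1 side of equality, beside 26.3% of all genes tested, and all 6 were higher in replicate 1. H2-D1 had a log2 ratio of -0.25 (-0.37 to -0.13), H2-T22 of -0.28 (-0.49 to -0.06) and H2-Oa of -0.94 (-1.93 to -0.06). B2m had -0.14 (-0.23 to -0.05), Tapbp -0.23 (-0.35 to -0.12) and Cd74 -0.17 (-0.28 to -0.06). These intervals cover counting error only, and 1 animal on each side gives no measure of the spread between animals.

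**Figure D4:**
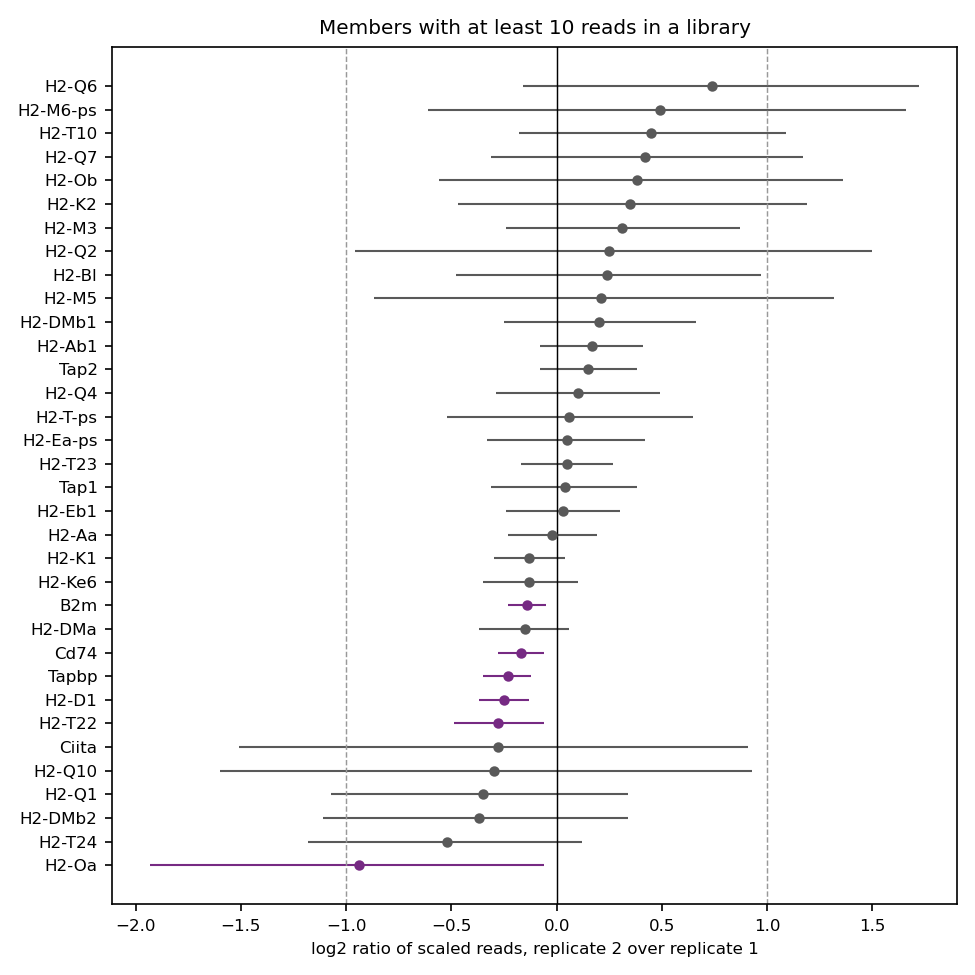
Log2 ratio of scaled expected counts, replicate 2 over replicate 1, for the 34 members with at least 10 reads in a library. Bars are 95% counting intervals, purple where they exclude equal levels, and dashed lines mark 2-fold. All points lie within the dashed lines and the purple ones lie on the side of replicate 1.

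Markers of other cell types were set beside these differences, and in bulk tissue fewer cells of a type and less RNA per cell cannot be told apart. By the same rule all 5 choroid plexus markers were higher in replicate 1, and they summed to 107 TPM in replicate 2 and 552 TPM in replicate 1. The 6 microglia markers summed to 262 TPM in replicate 2 and 284 TPM in replicate 1, no call among them and a median log2 ratio of -0.16. The 5 endothelial markers summed to 66.8 TPM in replicate 2 and 68.7 TPM in replicate 1, with no call and a median log2 ratio of -0.22. Among them Cldn5, a tight junction protein, had a log2 ratio of -0.36 (-0.54 to -0.17), and Pecam1 and Ly6c1 each had -0.22. Tek had -0.2 (-0.41 to 0.0), whereas Flt1 went the other way with 0.05 (-0.04 to 0.14). The 5 cortical neuron markers summed to 2032 TPM in replicate 2 and 1796 TPM in replicate 1, with no call and a median log2 ratio of 0.05. The part of these cell types in the small differences of the MHC genes was not tested.

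Markers of dendritic cells and border macrophages, also known for class II, summed to less than those of microglia. The 6 dendritic cell markers summed to 16.0 TPM in replicate 2 and 15.6 TPM in replicate 1. Nearly all of this came from Itgax, with 7.75 TPM in replicate 2 and 8.83 TPM in replicate 1, Zbtb46 and Flt3. Xcr1 had 0 reads in both animals. Ccr7 had 3 reads in replicate 2 and 5 reads in replicate 1, and Clec9a had 4 reads in replicate 2 and 1 read in replicate 1. The 5 border macrophage markers summed to 4.74 TPM in replicate 2 and 4.99 TPM in replicate 1. Of the 5 T cell markers, which summed to 7.14 TPM in replicate 2 and 6.20 TPM in replicate 1, Cd4 held 6.84 TPM in replicate 2 and 5.77 TPM in replicate 1. The cells that carried the class II reads were not tested.

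The wider pathway showed no gene called between the animals, beside 1.22% of all genes tested, which is close to none in lists this short. Those tested were 10 genes of peptide supply and loading, 11 of class I regulation and interferon signalling and 7 class II regulators. The other lists had 6 tested genes of class II processing, 5 class I-like genes and 2 class I receptors. Among 10 genes of peptide supply and loading, the chaperones Canx with 185 ± 8.95 TPM and Calr with 168 ± 3.66 TPM and the disulfide isomerase Pdia3 with 66.1 ± 3.51 TPM stood highest (SD, n = 2). Among 7 genes of class II processing, the proteases Ctss with 117 ± 2.72 TPM, Ctsl with 81.7 ± 2.91 TPM and Lgmn with 62.0 ± 0.22 TPM led (SD, n = 2). Ctss, which trims the invariant chain, was thus above Cd74 itself.

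Among 11 genes of class I regulation and interferon signalling, the kinase Jak1 had 48.2 ± 2.62 TPM, the repressor Irf2 23.9 ± 1.31 TPM and the receptor chain Ifnar1 20.4 ± 0.67 TPM (SD, n = 2). Nlrc5, the coactivator of class I genes, had 1.29 TPM in replicate 2 and 0.50 TPM in replicate 1. It stood above its class II counterpart Ciita in both animals. Among 7 class II regulators, which bind the promoters with Ciita or near it, Nfyb had 27.8 ± 2.28 TPM, Creb1 20.4 ± 0.82 TPM and Nfyc 20.2 ± 1.29 TPM (SD, n = 2).

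Class I-like genes outside the H2 symbols were led by the antibody transporter Fcgrt with 9.95 ± 1.33 TPM, followed by the iron regulator Hfe with 2.38 ± 0.45 TPM and the metabolite-presenting Mr1 with 2.20 ± 0.53 TPM (SD, n = 2). In a list of 7 receptors for class I and their relatives, Lilrb4a had 1.30 TPM in replicate 2 and 1.08 TPM in replicate 1. Pirb had 11.3 reads in replicate 2 and 1.07 reads in replicate 1, which was not called. Cd8b1 had 0 reads in replicate 2 and 4 reads in replicate 1, and Klrk1 and Klrc1 had none in either.

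Promoter windows from RefSeq (GRCm38.p6), from 250 bases before to 50 bases after a gene's start, were found for 35 members. The CCAAT box (CCAAT on either strand), bound by the Nfy factors, occurred in the windows of 32 of these 35 genes, beside 41.1% of 27025 genes in the table. All 3 class II chain genes with a window, H2-Aa, H2-Eb1 and H2-Eb2, and all 5 exchange genes held it, as did 20 of 23 class I heavy chain genes. The 20 include H2-M1, H2-M9, H2-M11 and the genes from H2-M10.1 to H2-M10.6, all with 0 reads in both animals. The box was thus not confined to detected members. The interferon response core (GAAA, any 2 bases, GAAA, on either strand) occurred in 3 of the 35, B2m, H2-T22 and H2-T23, beside 3.99% of all genes. Only this exact pattern was searched, so a gene without it, such as H2-K1, is not shown to lack a response element. No printed copy of 1 motif overlaps a copy of the other.

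The windows of 3 genes are shown: B2m, the highest member, H2-Eb1, a detected beta chain, and H2-Eb2, which had 0 reads in the RSEM-format tables. In the 200 bases before the start, H2-Aa and H2-K1 held the same motifs as H2-Eb2, 1 CCAAT box and 0 interferon response cores. H2-Aa nevertheless had 16.4 TPM in replicate 2 and 15.6 TPM in replicate 1. H2-K1 had 24.8 TPM in replicate 2 and 26.3 TPM in replicate 1. A link between motif content and level was not tested. Each line gives the 200 bases before the start on the plus strand, with both motifs in capitals. The windows lie at chr2:122147487-122147686 for B2m, chr17:34305667-34305866 for H2-Eb1 and chr17:34325475-34325674 for H2-Eb2. In B2m the CCAAT box begins 53 bases and the interferon response core 139 bases before the start.
B2m: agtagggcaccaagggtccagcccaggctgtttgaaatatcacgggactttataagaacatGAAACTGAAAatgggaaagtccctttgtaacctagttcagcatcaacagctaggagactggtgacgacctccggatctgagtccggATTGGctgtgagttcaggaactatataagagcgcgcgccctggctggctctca
H2-Eb1: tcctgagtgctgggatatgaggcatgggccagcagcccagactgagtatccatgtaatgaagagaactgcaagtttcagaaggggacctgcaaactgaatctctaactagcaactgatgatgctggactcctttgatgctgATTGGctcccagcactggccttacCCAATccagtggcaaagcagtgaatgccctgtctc
H2-Eb2: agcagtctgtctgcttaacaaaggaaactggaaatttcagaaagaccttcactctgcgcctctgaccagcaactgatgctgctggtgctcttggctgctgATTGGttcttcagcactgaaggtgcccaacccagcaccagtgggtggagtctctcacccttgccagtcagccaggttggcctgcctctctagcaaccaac

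The tables were compared next, since both counted reads of the same libraries. Of 35 members with enough reads, H2-Q5, H2-Q6, H2-Q7 and H2-Q10 had at least 2-fold more reads in the kallisto-format table than in the RSEM-format table in both libraries. That is 4 of 35, beside 11.2% of all genes, a share close to the background. On the TPM scale 0 members were called, and after centring on the median gene 2 were called, H2-Q7 and H2-Q10. None had at least 2-fold fewer, beside 1.54% of all genes. The median log2 ratio of the members was 0.19 in replicate 2 and 0.23 in replicate 1, against 0.23 in replicate 2 and 0.18 in replicate 1 for all genes.

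H2-Q7, which encodes Qa-2, had 118 reads in replicate 2 and 103 reads in replicate 1 of the kallisto-format table, against 38.2 reads in replicate 2 and 29.5 reads in replicate 1 of the RSEM-format table. H2-Q10, a secreted heavy chain known from liver, had 56.9 reads in replicate 2 and 34.6 reads in replicate 1 of the kallisto-format table, against 10.7 reads in replicate 2 and 14.3 reads in replicate 1 of the RSEM-format table. For both genes the kallisto-format values lay above the RSEM-format values in each library. The log2 ratio was 1.61 in replicate 2 and 1.78 in replicate 1 for H2-Q7, and 2.36 in replicate 2 and 1.25 in replicate 1 for H2-Q10.

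The extra reads of H2-Q7 and H2-Q10 sat on long retained-intron entries. H2-Q7-206, of 4209 bases, held 105 reads in replicate 2 and 99.87 reads in replicate 1 of the kallisto-format table, against 13.8 reads in replicate 2 and 17.5 reads in replicate 1 of the RSEM-format table. H2-Q10-203, of 4328 bases, held 56.9 reads in replicate 2 and 31.03 reads in replicate 1 of the kallisto-format table, against 7.63 reads in replicate 2 and 6.42 reads in replicate 1 of the RSEM-format table. On the coding entries of H2-Q10 the kallisto-format table had 0.00 TPM in replicate 2 and 0.10 TPM in replicate 1, and the RSEM-format table had 0.09 TPM in replicate 2 and 0.23 TPM in replicate 1.

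H2-Q5 differed on a shorter retained-intron entry, H2-Q5-203 of 1156 bases, which held 19.2 reads in replicate 2 and 25.1 reads in replicate 1 of the kallisto-format table, against 8.80 reads in replicate 2 and 6.09 reads in replicate 1 of the RSEM-format table. H2-Q6 differed on the coding entry H2-Q6-202, with 66.8 reads in replicate 2 and 37.8 reads in replicate 1 of the kallisto-format table, against 28.2 reads in replicate 2 and 11.4 reads in replicate 1 of the RSEM-format table. H2-Q4 likewise differed mainly on a coding entry, H2-Q4-201, with 208 reads in replicate 2 and 150 reads in replicate 1 of the kallisto-format table, against 81.6 reads in replicate 2 and 87.2 reads in replicate 1 of the RSEM-format table. Its log2 ratio was 1.12 in replicate 2 and 0.83 in replicate 1, under the threshold in replicate 1. All 5 of these H2-Q genes share at least 30.3% of their 31-base words with other genes. This was not particular to them. H2-Q2, with 32.8% shared, had a mean log2 ratio of -0.1, and H2-DMb2, with 36.6%, also had -0.1. H2-DMb1, with 31.4%, had 0.13, and H2-T-ps, with 48.4%, had -0.12.

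The share of words held in common was then set beside the ratio. Of the 6 members with at least 50% of their words shared, 3 had a mean log2 ratio of at least 0.5, and these were H2-Q4, H2-Q5 and H2-Q6. H2-T22 shared 67.4% of its words, mostly with H2-T10, a gene 96.3% identical in coding sequence, and its log2 ratio was 0.12 in replicate 2 and 0.14 in replicate 1. Of the 12 members with under 5% shared, 2 had a mean log2 ratio of at least 0.5. H2-Q7, with 39.3% shared, and H2-Q10, with 30.3%, lay between these limits. The cause of the difference between the tables was not tested.

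**Figure D5:**
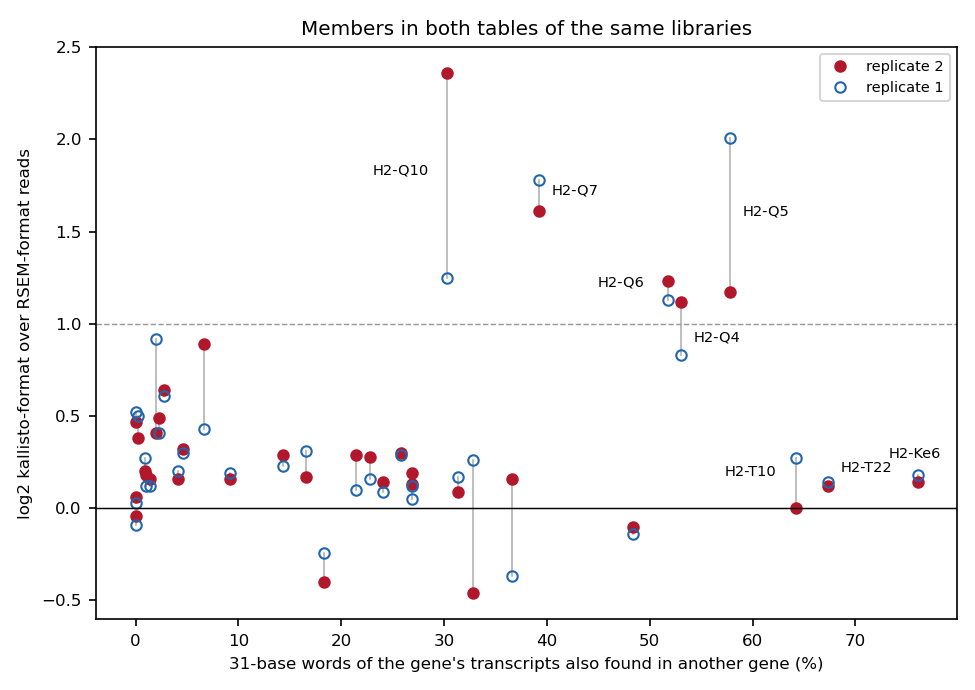
Log2 ratio of kallisto-format over RSEM-format reads for 35 members (vertical) against the percent of 31-base words that the gene's transcripts share with another gene (horizontal), filled red for replicate 2 and open blue for replicate 1, joined by a line. The 5 labelled H2-Q genes lie at 0.83 or above in both libraries, with 30.3% to 57.9% of words shared, and H2-T22, H2-T10 and H2-Ke6 lie near 0 with more words shared.

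The summed class I counts changed little by comparison. They were 3587 reads in replicate 2 and 3745 reads in replicate 1 of the kallisto-format table, against 2878 reads in replicate 2 and 3226 reads in replicate 1 of the RSEM-format table. The log2 ratio was 0.32 in replicate 2 and 0.22 in replicate 1, close to the median gene. B2m, which shares no 31-base word with another gene, had a log2 ratio of -0.04 in replicate 2 and -0.09 in replicate 1.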

How the data were processed

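Per the file headers, the authors deposited for each library an RSEM-format gene table (expected counts and TPM), an RSEM-format transcript table (with the percent each transcript takes of its gene) and a kallisto-format transcript table (estimated counts and TPM), which was summed per gene here. The deposited description names mm10 and annotation M21. The aligner, program versions and strand setting were not given in the sources used here. Of the named members, 14 overlap a gene on the other strand.

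Members and gene lists were chosen with earlier results of these data known. Named members had at least 10 reads in any table, and of each pathway list the 3 highest genes and any called gene were named. Genes were tested between the animals from rounded expected counts with TMM scaling (edgeR 4.0.16) and 0.5 reads added. A call needed at least 2-fold, at least 10 reads in a library and a 99.9% Clopper-Pearson interval that excluded equal levels. Printed intervals are 95% and cover counting error only. No p-value was computed, because there is 1 group. The counting rule was tested on simulated data. A quantifier call needed at least 2-fold in the same direction in both libraries, and at least 10 reads in 1 table of each. Coding sequences were aligned with MAFFT 7.526.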

Additional observations from a re-analysis of the deposited data

How the results depend on the processing

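No paired analysis was possible because both libraries belong to 1 group. The summed level of all members was 377 TPM in the kallisto-format table, against 362 TPM in the RSEM-format table, and the level of 23 of 35 named members moved by more than 1 SD of the animals. With at least 10 expected counts in both libraries as the criterion, 34 members counted as detected, against 21 by TPM. The class I over class II log2 ratio was 0.51 with H2-K1 and H2-D1 against H2-Aa, H2-Ab1 and H2-Eb1, and 1.57 on expected counts. Members apart between the tables numbered 0 on the TPM scale and 2, H2-Q7 and H2-Q10, after centring on the median gene, an alternative chosen after seeing the data. The class I log2 ratio between the tables was 0.10 on TPM. The cause of these changes was not tested. With 1 library left out, the results were 361.5 to 363.1 TPM for the summed level, 23 for detected members, 0.89 to 1.15 for class I over class II, 4 to 5 for members apart between the tables and 0.22 to 0.32 for their class I log2 ratio. The count of 0 members different between the animals was the same under all 6 alternatives run. At this depth, members with under 50 reads in both libraries had intervals that reached beyond 1.5-fold.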
